A study of Capra hircus with 9 samples.

Results

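Water, phosphate, sodium, chloride and iodide transport in the goat mammary gland was followed through 9 genes: the water channels AQP1, AQP3 and AQP5, the phosphate transporter SLC34A2, the sodium and chloride transport genes SLC12A2, CFTR, ATP1B1 and SCNN1A, and the iodide transporter SLC5A5. The genes were picked by symbol, and each matched 1 of the 23499 rows of the deposited expression table. RNA had been sequenced from whole mammary tissue of 9 healthy Laoshan dairy goats of equal parity (the third), 3 at each of 3 stages. Late lactation (LL) was sampled 240 days postpartum, the dry period (DP) 300 days postpartum and late gestation (LG) 140 days after mating, so the replicates of a stage were separate goats and no goat was seen at more than 1 stage. The labels name no treatment or genetic change in any group.

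Milk is isosmotic with blood, and water follows lactose and ions across the secretory epithelium. Aquaporins are the pores through which water, and in the case of AQP3 also glycerol, crosses cell membranes. The sodium-potassium pump keeps sodium low inside the cell, and cotransporters such as those for chloride, phosphate and iodide use that gradient, while chloride and sodium channels in the apical membrane help to set the ionic content of milk.

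Values were FPKM, that is, fragments scaled to transcript length and to the mapped fragments of the library, as deposited. The deposited FPKM do not state how many reads lay behind a value, so counting error is unknown. For the tests each library was divided by a scaling factor from the median ratio over genes above 0 in every library. These factors were 0.498 to 0.605 in LL, against 1.44 to 1.53 for DP and 1.20 to 1.31 for LG, so a gene at the same deposited FPKM in LL and DP is higher in LL after scaling. Fold changes are differences of mean log2(scaled FPKM + 1), which understate the change of low genes. A gene was called where the Benjamini-Hochberg adjusted p of limma, taken over all 14701 genes tested, was under 0.05 and the log2 fold change was at least 1 in size. The casein gene CSN2, used here to check the stages, stood at 83442 to 101530 FPKM in LL, against 17.6 to 47.8 FPKM for DP and 3851 to 6044 FPKM for LG. The summed scaled level of 10 luminal epithelium marker genes was 955 to 1207 in LL, against 395 to 700 for DP and 920 to 1077 for LG. ELF5, a transcription factor of the secretory lineage, carried the lower DP sum and was the 1 luminal marker called lower in DP than in LL. Without it the other 9 summed to 469 to 532 in LL and 369 to 656 in DP, which overlapped. EPCAM, CDH1 and ESRP1 were also lower in DP, short of a call (log2 fold change -0.74, -0.48 and -0.59, limma adjusted p = 0.0257, 0.0311 and 0.0283). Of the 10 markers 7 lay below 0 in DP against LL, beside 7326 of the 14701 genes tested. The 3 above 0 were KRT7, KRT8 and KRT18. In bulk tissue, fewer cells of a type and less RNA per cell cannot be told apart.

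The 3 water channels each peaked at a different stage. AQP3 and SLC34A2 were highest in LL, AQP1 was highest in DP, and AQP5, SLC12A2 and SLC5A5 were highest in LG, all of them with and without scaling. All 9 genes passed the filter on low values, AQP5 through its 3 LG libraries alone and SLC5A5 through those and DP1. A gene admitted by the stage in which it is high had to differ, so the tests of these 2 genes add nothing to their values.

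AQP1, the water channel typical of capillary endothelium and red cells, lies on chromosome 4 at 54819355 to 54832768 on the plus strand (gene 102185242; ARS1.2 assembly). It read 22.62, 26.36 and 33.33 FPKM in LL1, LL2 and LL3, 137.07, 172.85 and 248.36 FPKM in DP1, DP2 and DP3, and 37.52, 31.37 and 43.04 FPKM in LG1, LG2 and LG3. All 3 DP libraries stood above the other 6, while deposited LL and LG values overlapped. The mean was 27.4 ± 5.44 FPKM in LL (SD, n = 3 at every stage), 186 ± 56.8 FPKM in DP and 37.3 ± 5.84 FPKM in LG. After scaling the means were 49.4, 127 and 29.8 and no pair of stages overlapped. AQP1 rose in DP against LL by a log2 fold change of 1.30 (SE 0.231, limma adjusted p = 0.00126) and fell in LG against DP (log2 fold change -2.01, limma adjusted p = 0.000270). In LG against LL the log2 fold change was -0.71 with a 95% interval of -1.23 to -0.19 (limma adjusted p = 0.0276), which did not reach the size for a call. The scaling mattered for AQP1: without it the log2 fold change was 2.69 in DP against LL and 0.44 in LG against LL, the latter of opposite sign.

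Markers of other cell types were set beside AQP1. The summed scaled level of 10 endothelium markers was 134 to 166 in LL, against 169 to 255 for DP and 79.7 to 113 for LG. By limma 0 of the 10 were called in DP against LL or in LG against LL, where 22.6% and 17.3% of all genes tested were. An adjusted p under 0.05 was met by 5 and 4 of the 10, and by 8359 and 7383 of the 14701 genes tested. In LG against DP 3 of the 10, TEK, EGFL7 and CLDN5, were called lower, beside 6.88% of all genes tested. All 10 lay above 0 in DP against LL (median log2 fold change 0.63), beside 7375 of the 14701 genes tested. In LG against DP 8 lay below 0 and 2 above (median -0.90), beside 7236 of all genes below 0. In LG against LL 7 lay below 0 and 3 above (median -0.25), beside 7196 of all genes below 0. The members of this list differed: scaled PECAM1 averaged 70.8 in LL and 72.6 in DP, and KDR was highest in LG (6.75, 8.94 and 11.5 in LL, DP and LG). The log2 ratio of AQP1 to these markers, log2(FPKM + 1) less the mean of the markers on the same scale, averaged 2.22 ± 0.10 in LL (SD, n = 3 at every stage), 3.17 ± 0.295 in DP and 1.92 ± 0.322 in LG. The DP ratios lay above all others, by 0.95 over LL, whereas LL and LG overlapped (difference -0.29, exact permutation p = 0.3). The 10 fibroblast markers summed to 249 to 376 in LL, against 581 to 2809 for DP and 547 to 999 for LG, and 9 of them were called higher in DP than in LL, where 13.8% of all genes tested were. The mean log2 ratio of AQP1 to the fibroblast markers was 1.21 in LL, 0.68 in DP and 0.12 in LG, so it was not higher in DP, and the difference of -0.53 between DP and LL had an exact permutation p of 0.2. The summed level of 10 leukocyte markers was 43.5 to 54.8 in LL, against 88.3 to 156 for DP and 34.2 to 51.7 for LG. Both ratios were chosen after the AQP1 values had been seen, and the part of vessels, stroma or leukocytes in the AQP1 change was not tested.

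AQP3, an aquaglyceroporin that passes glycerol as well as water, lies on chromosome 8 at 74981478 to 74987380 on the minus strand (gene 102191136). Its values were 11.51, 13.38 and 7.59 FPKM in LL1, LL2 and LL3, 1.50, 1.39 and 0.92 FPKM in DP1, DP2 and DP3, and 2.45, 3.87 and 2.10 FPKM in LG1, LG2 and LG3. The 3 stages did not overlap in any pair, with LL highest and DP lowest, and the scaled means were 19.9, 0.862 and 2.26 in LL, DP and LG. AQP3 fell in DP against LL (log2 fold change -3.44, SE 0.250, limma adjusted p = 7.69e-06) and was also lower in LG than in LL (log2 fold change -2.66, limma adjusted p = 4.13e-05). LG exceeded DP by 0.79 on the log2 scale (95% interval 0.23 to 1.35, limma adjusted p = 0.0353), short of a call. It was called under quantile normalization (1.09) and with 0.1 added in place of 1 (1.26).

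AQP5, the water channel of the apical membrane in salivary, lacrimal and other exocrine glands, lies on chromosome 5 at 29563307 to 29568358 on the minus strand (gene 102189554). It was listed at 0 in all 3 LL libraries, at 0.01, 0 and 0.02 FPKM in DP1, DP2 and DP3, and at 26.52, 3.81 and 3.41 FPKM in LG1, LG2 and LG3. The LG libraries were apart from the other 6, but LG1 was several times the other two. The log2 fold change of LG was 2.80 against LL and 2.79 against DP. Both met the rule for a call, also in a fit with no filter on low values (limma adjusted p = 0.00821 and 0.0125), but the filter used here admitted AQP5 because of its LG values. Because LL and most of DP lay at or near 0, these fold changes depended on the value added before taking logs and were 5.85 and 5.76 when 0.1 was added instead of 1. Without LG1 they were 1.92 and 1.91.

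AQP5 sits in a row of aquaporin genes on chromosome 5, in the order AQP6, AQP5, AQP2 and FAIM2, and AQP6, AQP2 and FAIM2 were also highest in LG1. Other genes nearby differed in deposited FPKM. RACGAP1 was highest in LG1, but SMARCD1, ASIC1 and BCDIN3D were highest in LG3 and NCKAP5L in DP1. FAIM2, an inhibitor of Fas-mediated cell death on the opposite strand, was listed at 0 in LL, at 0.13, 0.01 and 0.08 FPKM in DP, and at 4.74, 1.15 and 1.47 FPKM in LG. AQP6 and AQP2 were listed at 0 outside LG and reached 0.11 and 0.14 FPKM in LG1. Over AQP5, AQP6, AQP2 and FAIM2 the highest of the 9 libraries was LG1 each time, but these genes were named after their values were seen. How reads were divided among these neighbouring genes was not tested.

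**Figure D1:**
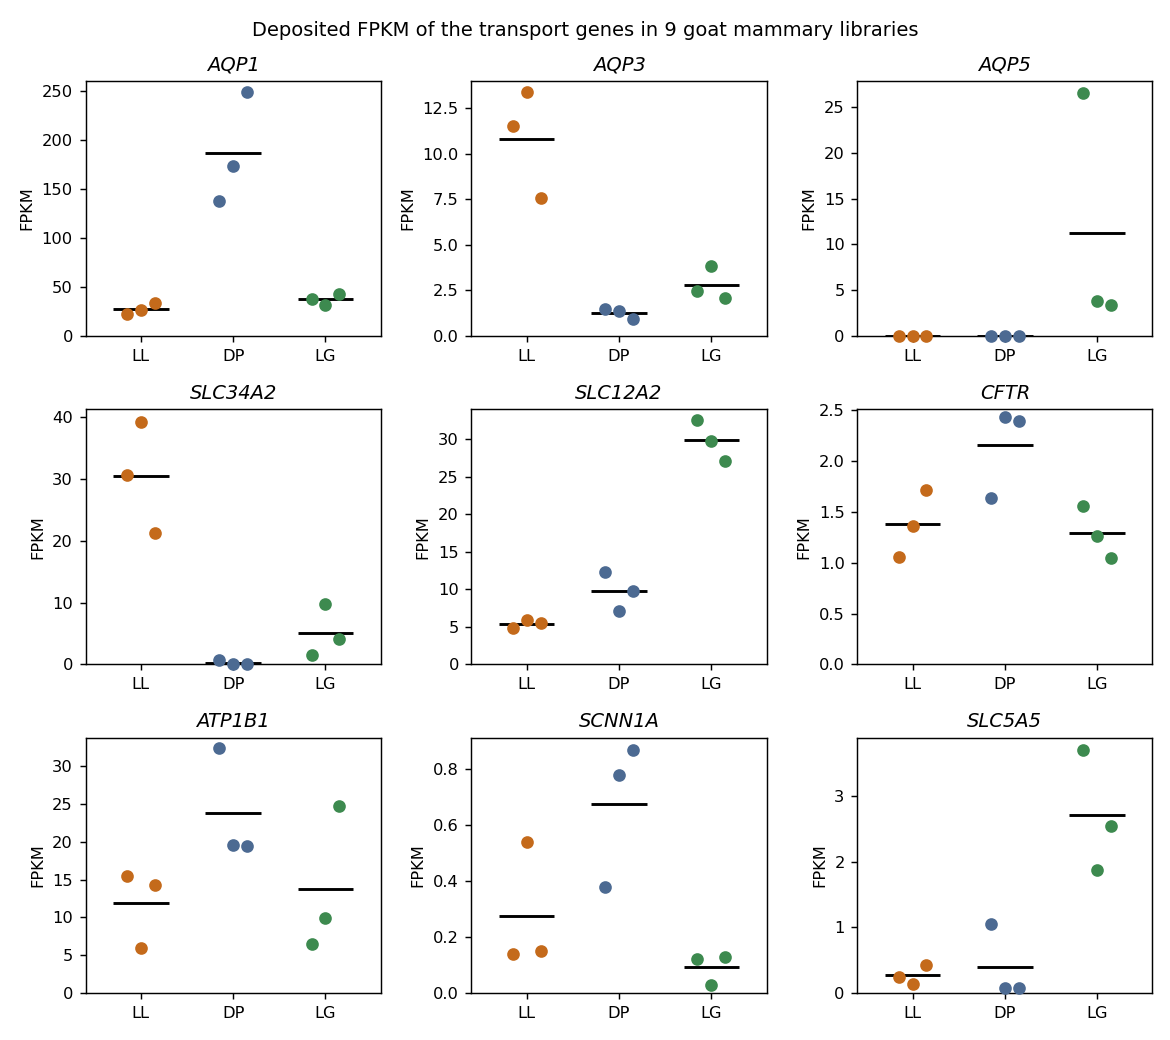
Deposited FPKM (vertical axis, linear and starting at 0) of the 9 transport genes, 1 panel per gene, with 1 point per library at LL, DP and LG (horizontal axis) and a bar at each stage mean (n = 3). AQP1 peaks in DP (137.07 to 248.36 FPKM), AQP3 and SLC34A2 in LL, and AQP5, SLC12A2 and SLC5A5 in LG, where AQP5 has a single high library at 26.52 FPKM.

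SLC34A2 is the sodium-phosphate cotransporter of apical membranes in lactating mammary gland, lung and gut, and it showed the widest range of the 9 genes on the fold change scale. The gene lies on chromosome 6 at 45594511 to 45620890 on the plus strand (gene 100861296). It read 30.71, 39.27 and 21.21 FPKM in LL1, LL2 and LL3, 0.64, 0.08 and 0.12 FPKM in DP1, DP2 and DP3, and 1.51, 9.78 and 4.12 FPKM in LG1, LG2 and LG3. No pair of stages overlapped. The mean was 30.4 ± 9.03 FPKM in LL (SD, n = 3 at every stage), 0.280 ± 0.312 FPKM in DP and 5.14 ± 4.23 FPKM in LG. Scaled means were 55.9, 0.186 and 4.11, so the LG mean was 22.1 times the DP mean. The DP mean rested on DP1, and without that library the ratio was 59.2. SLC34A2 fell in DP against LL (log2 fold change -5.54, SE 0.439, limma adjusted p = 1.17e-05) and in LG against LL (-3.64, limma adjusted p = 0.000170), and rose in LG against DP (1.90, limma adjusted p = 0.00894). DP read at most 0.64 FPKM, so the sizes against DP depended on the value added before taking logs. Over all alternative settings they ran from -7.77 to -4.60 in DP against LL. In LG against DP they ran from 1.36 to 3.74, and every setting gave the same calls. LG1 was the lowest LG library for SLC34A2 and the highest for AQP5. Without DP1 the log2 fold change was -5.60 in DP against LL and 1.98 in LG against DP.

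SLC12A2, the basolateral sodium-potassium-chloride cotransporter that loads secretory cells with chloride, lies on chromosome 7 at 84754233 to 84850017 on the plus strand (gene 102173836). It read 4.80, 5.96 and 5.53 FPKM in LL1, LL2 and LL3, 12.33, 7.17 and 9.76 FPKM in DP1, DP2 and DP3, and 32.60, 29.85 and 27.19 FPKM in LG1, LG2 and LG3. The 3 stages did not overlap and the LG libraries were close together (29.9 ± 2.71 FPKM, SD, n = 3). After scaling the LG mean was 3.64 times the DP mean, and DP (6.61) lay under LL (9.85). SLC12A2 was higher in LG than in LL (log2 fold change 1.20, limma adjusted p = 0.000510) and than in DP (1.73, limma adjusted p = 0.000152). Between DP and LL the order depended on the scaling: the log2 fold change was -0.53 (limma adjusted p = 0.0266) with it and 0.72 without, and neither reached a call.

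CFTR, the cyclic AMP regulated chloride and bicarbonate channel of apical membranes, lies on chromosome 4 at 69349724 to 69530890 on the plus strand (gene 102179446). It stayed low, at 1.06, 1.36 and 1.72 FPKM in LL1, LL2 and LL3, 1.64, 2.44 and 2.40 FPKM in DP1, DP2 and DP3, and 1.56, 1.26 and 1.05 FPKM in LG1, LG2 and LG3. Deposited values were highest in DP, whereas scaled means ran 2.48, 1.48 and 1.04 from LL through DP to LG. No comparison of CFTR was called with 1 added before taking logs. The log2 fold change was -0.49 in DP against LL (limma adjusted p = 0.0195), -0.77 in LG against LL (limma adjusted p = 0.00256) and -0.28 in LG against DP (95% interval -0.62 to 0.06, limma adjusted p = 0.183). The value in DP against LL was 0.41 without scaling, so its sign was set by the scaling. In LG against LL it was -1.19 and was called with 0.1 added in place of 1.

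ATP1B1 encodes the beta 1 subunit of the sodium-potassium pump, which carries the catalytic subunit to the membrane, and lies on chromosome 16 at 35288825 to 35317919 on the plus strand (gene 102168373). Goats of the same stage differed widely. The values were 15.53, 5.91 and 14.28 FPKM in LL1, LL2 and LL3, 32.42, 19.64 and 19.38 FPKM in DP1, DP2 and DP3, and 6.47, 9.98 and 24.69 FPKM in LG1, LG2 and LG3. Deposited DP values lay above all LL values, but after scaling every pair of stages overlapped. With all libraries and the main scaling, none of the log2 fold changes was called: -0.33 in DP against LL (95% interval -1.34 to 0.69), -1.0 in LG against LL (-2.02 to 0.01) and -0.68 in LG against DP (-1.69 to 0.34). In LG against LL it was called at -1.44 without LL2 and at -1.46 without LG3, and in LG against DP at -1.28 when scaled to luminal markers. The intervals above leave room for changes of more than 1 on the log2 scale in each comparison. The end of ATP1B1 overlaps NME7 on the opposite strand, which spans 35317571 to 35559979 and read 1.74 to 10.98 FPKM. Whether counting used strand is not given in the sources used here, so reads from the shared stretch cannot be told apart.

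SCNN1A, the alpha subunit of the epithelial sodium channel ENaC, lies on chromosome 5 at 102912617 to 102938590 on the plus strand (gene 102190031). It was near the lower limit throughout, at 0.14, 0.54 and 0.15 FPKM in LL1, LL2 and LL3, 0.38, 0.78 and 0.87 FPKM in DP1, DP2 and DP3, and 0.12, 0.03 and 0.13 FPKM in LG1, LG2 and LG3. Every DP value exceeded every LG value, while LL overlapped with DP. The log2 fold changes of -0.01, -0.45 and -0.44 in DP against LL, LG against LL and LG against DP were not called (limma adjusted p = 0.965, 0.0837 and 0.112). Adding 1 shrinks a gene under 1 FPKM: with 0.1 added the last 2 were -1.62, which was called, and -1.66. Its partner subunits SCNN1B and SCNN1G reached at most 0.27 and 0.35 FPKM in any library and were not tested.

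SLC5A5, the sodium-iodide symporter that brings iodide into thyroid and lactating mammary cells, lies on chromosome 7 at 103524190 to 103537494 on the plus strand (gene 102172803). It read 0.24, 0.14 and 0.42 FPKM in LL1, LL2 and LL3, 1.05, 0.07 and 0.08 FPKM in DP1, DP2 and DP3, and 3.70, 1.87 and 2.54 FPKM in LG1, LG2 and LG3. The LG libraries lay above the other 6, and DP1 was the only library outside LG above 0.5 FPKM. The log2 fold change met the rule for a call in LG against LL (1.09) and against DP (1.34), in a fit with no filter as well (limma adjusted p = 0.00847 and 0.00524). The difference from LL lay close to the size needed and was not called without LG1 (0.88), under quantile normalization (0.76), under scaling to the luminal markers (0.99) or with LL and LG alone in the fit (0.996).

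Counted by comparison, 3 of the 9 genes were called in DP against LL, beside 22.6% of all genes tested. AQP1 was the 1 called higher (13.8% of all genes), and AQP3 and SLC34A2 were the 2 called lower (8.79% of all genes). In LG against LL 5 of the 9 were called, beside 17.3% of all genes: AQP5, SLC12A2 and SLC5A5 higher (10.7% of all genes) and AQP3 and SLC34A2 lower (6.61% of all genes). In LG against DP 5 of the 9 were called as well, beside 13.3% of all genes, namely AQP5, SLC34A2, SLC12A2 and SLC5A5 higher (6.37% of all genes) and AQP1 lower (6.88% of all genes). Without AQP5 and SLC5A5, which met the filter through LG, 3 of the other 7 genes were called in each comparison: SLC12A2 higher and AQP3 and SLC34A2 lower in LG against LL, and SLC34A2 and SLC12A2 higher and AQP1 lower in LG against DP. The median log2 fold change of the 9 genes was -0.33, -0.71 and 0.79 in the 3 comparisons, against 0.00, 0.02 and 0.01 over all genes. A difference among the stages by limma's moderated F test was called for 7 of the 9, all but ATP1B1 and SCNN1A (adjusted p = 0.156 and 0.0989), beside 70.0% of all genes tested. Those 7 include AQP5 and SLC5A5, which met the filter through LG, and the rest were AQP1, AQP3, SLC34A2, SLC12A2 and CFTR. With so large a share of all genes called, this count is not read as a result about the members. The 3 comparisons share their groups in pairs and are not independent of each other.

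**Figure D2:**
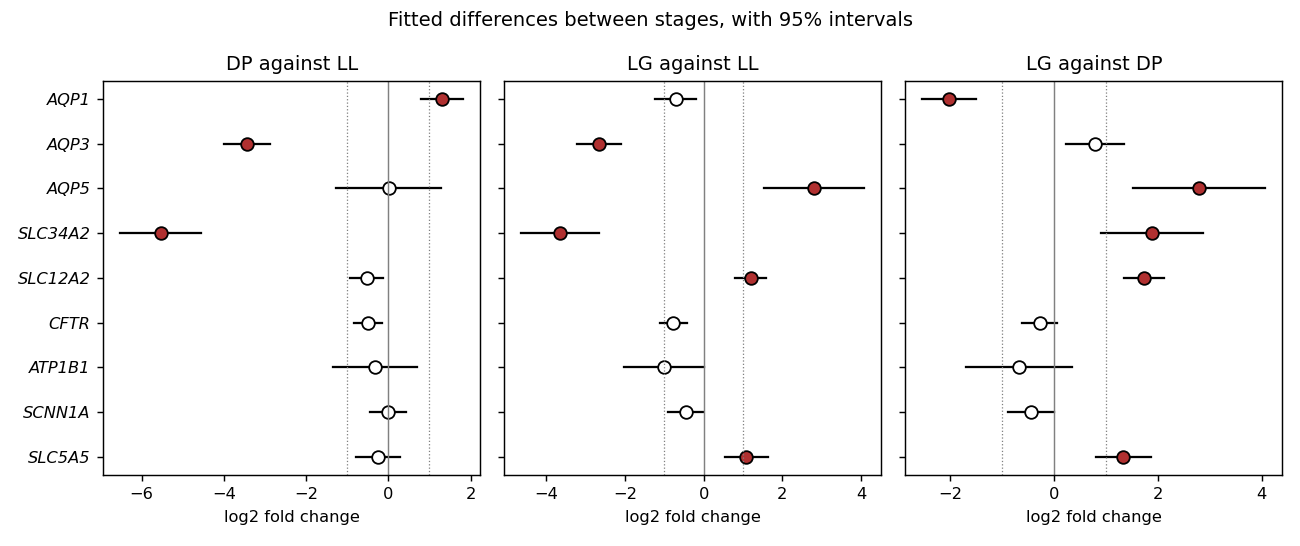
Log2 fold change on the log2(scaled FPKM + 1) scale (axis of values) of the 9 transport genes in DP against LL, LG against LL and LG against DP, with lines for 95% intervals, filled points for called genes and dotted lines at a size of 1. SLC34A2 lies farthest from 0 in DP against LL (-5.54), and the intervals of ATP1B1 cross 0 in every comparison, narrowly in LG against LL (-2.02 to 0.01).

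The scaling moved the members together, so each was also read under 3 other scalings. Without any scaling the median of all genes shifted by 1.09 in DP against LL and 0.93 in LG against LL. The 2 calls of AQP1, the 2 of AQP3, the 3 of SLC34A2 and the 2 of SLC12A2 were made with the same sign under all 4 scalings. So were the 2 of AQP5, but its LL and DP values lay at or near 0, so scaling could hardly turn their sign. AQP5 and SLC5A5 met the filter through LG, so their calls under any scaling add nothing to their values. Of the SLC5A5 calls, that against DP was made under all 4 and that against LL was not.

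**Figure D3:**
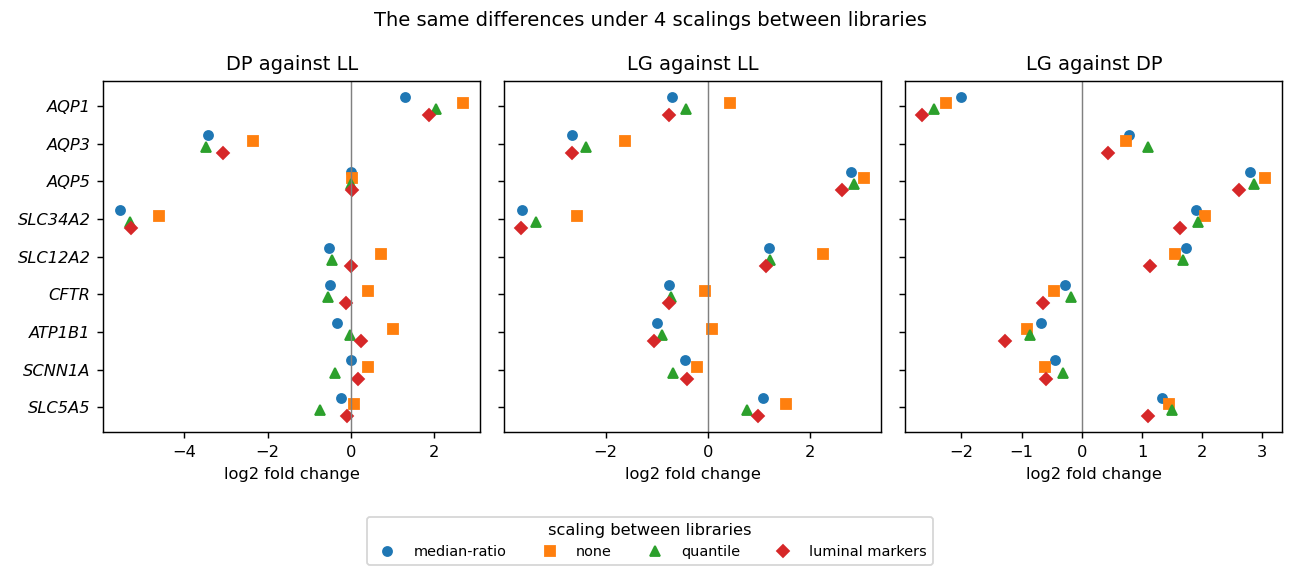
Log2 fold change of the 9 transport genes in the 3 comparisons under 4 scalings: median ratio (circles), none (squares), quantile normalization (triangles) and the luminal epithelium markers (diamonds). The symbols for SLC12A2 in DP against LL lie on both sides of 0 (-0.53 by median ratio, 0.72 with none), while those for AQP3 and SLC34A2 in DP against LL lie below -1.

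To read the genes beside the luminal markers, the mean log2(FPKM + 1) of all 10 was subtracted from the log2(FPKM + 1) of each gene, without any scaling between libraries. ELF5, 1 of the 10, averaged 325 FPKM in LL and 46.9 FPKM in DP, which raised every DP ratio relative to LL. For genes near or under 1 FPKM, such as CFTR, SCNN1A and SLC5A5, the added 1 makes this log2 ratio follow the markers as much as the gene. With 3 goats against 3 the smallest two-sided p of the exact permutation test is 0.1, and after adjustment over the 48 tests on 16 ratios it was 0.155. The ratios are therefore described by their overlap, which is no further evidence. A lack of overlap is the same outcome as that smallest p, and 31 of the 48 tests had it. How often stages lack overlap over all genes was not counted. The log2 ratio of AQP3 to the luminal markers was -1.25 in LL, -4.44 in DP and -4.13 in LG, and that of SLC34A2 was 0.15, -5.29 and -3.65. For both genes DP and LG lay below every LL library. The AQP3 ratio overlapped between LG and DP (difference 0.32, exact permutation p = 0.3), whereas that of SLC34A2 did not (1.63). AQP1 stood at 0.03 in LL, 1.89 in DP and -0.78 in LG without overlap. The SLC12A2 ratio overlapped between LL and DP (difference -0.12, exact permutation p = 0.9, but -0.52 without ELF5 and 0.47 without keratins among the markers) and higher in LG by 1.02 over LL and 1.14 over DP, without overlap. For SLC5A5 the LG ratio overlapped with LL (difference 0.28, exact permutation p = 0.4) and with DP (1.04, exact permutation p = 0.2).

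**Figure D4:**
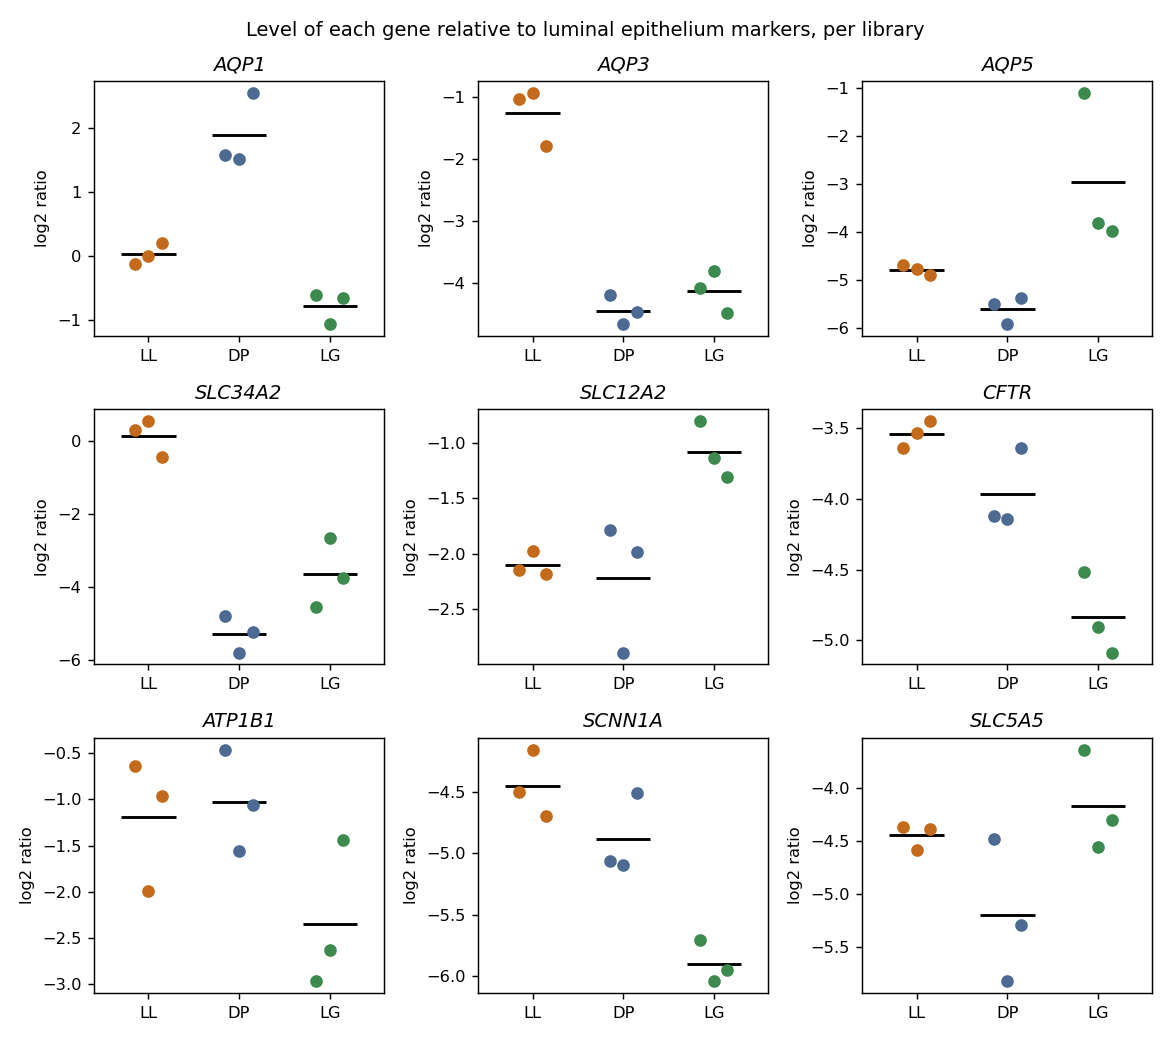
Log2(FPKM + 1) of each transport gene less the mean log2(FPKM + 1) of 10 luminal epithelium markers (vertical axis), 1 panel per gene with 1 point per library at LL, DP and LG and a bar at each mean (n = 3). SLC34A2 drops from 0.15 in LL to -5.29 in DP and -3.65 in LG, and SLC12A2 is higher in LG than in the other stages.

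Ratios between the genes themselves compared the water channels within each library. The log2 ratio of AQP3 to AQP5 was 3.53 in LL, 1.16 in DP and -1.16 in LG. AQP5 was listed at 0 in LL and at most 0.02 FPKM in DP, so in both stages the ratio reflects AQP3 and the added 1. The log2 ratio of AQP3 to AQP1 was lower by 5.05 in DP than in LL and by 2.07 in LG than in LL, without overlap. The log2 ratio of SLC12A2 to ATP1B1, a cotransporter against a subunit of the pump that drives it, was higher in LG by 2.17 over LL and 2.46 over DP, without overlap. The gap from LL was narrow, with LG3 at 0.13 and LL2 at 0.01, and LG reached 2.17 in LG1. Between DP and LL this log2 ratio differed by -0.29 (exact permutation p = 0.8). That of SCNN1A to ATP1B1 differed by -0.61, -0.30 and 0.31 in the 3 comparisons, and the stages overlapped each time (exact permutation p = 0.6, 0.7 and 0.5).

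FPKM are per length, so the levels of different genes can be set side by side within a library. Summed over the 9 genes, deposited FPKM came to 84.2 to 92.9 in LL, against 187 to 282 for DP and 91.8 to 112 for LG. After scaling the sums were 139 to 174, 122 to 196 and 74.4 to 93.9, so LL and DP overlapped and LG was lowest. In LL, SLC34A2 and AQP1 led and overlapped, followed by ATP1B1 and AQP3, which overlapped, then SLC12A2, CFTR, the overlapping SCNN1A and SLC5A5, and AQP5. In DP, AQP1 alone made up 73.3% to 88.1% of the sum, and ATP1B1, SLC12A2, CFTR and AQP3 followed, each above the next in mean, before SCNN1A, SLC5A5 and SLC34A2, which overlapped. In LG, AQP1 and SLC12A2 led and overlapped, and ATP1B1, AQP5, SLC34A2, AQP3 and SLC5A5 formed a run in which each overlapped the next. Among all 23499 genes AQP1 ranked between 177 and 235 in DP, and SLC34A2 between 541 and 949 in LL and between 14787 and 17540 in DP.

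The genes whose log2 scaled values most resembled each member over the 9 libraries were named by Pearson's r, among the tested genes that had a symbol and were not close neighbours (12254 for ATP1B1). AQP1 was closest to MGP (r = 0.988), a matrix protein that inhibits calcification, and to PAMR1 and PKIB. SLC34A2 was closest to REC8, MPC1 and MFSD4A (r = 0.987 to 0.989), of which MPC1 is part of the mitochondrial pyruvate carrier. AQP3 was closest to APTX, FAM134B and CHURC1 (r = 0.991 to 0.994). Before scaling only FAM134B was highest in LL, as AQP3 was. Deposited means in LL, DP and LG were 2.56, 3.34 and 3.22 FPKM for APTX and 16.1, 20.3 and 19.5 FPKM for CHURC1. These were lowest in LL, so their likeness to AQP3 came with the scaling. SLC12A2 was closest to PIK3CD, VPS26B and FAM229B (r = 0.981 to 0.989) and CFTR to NEK11, CPEB1 and MCF2L2 (r = 0.993 to 0.997). AQP5 resembled HMGB3 and SHCBP1 (r = 0.981 for each). SLC5A5 was closest to NCAPG, a condensin subunit, CENPF, a centromere protein, and KIAA0101 (r = 0.972 to 0.978). Among these genes ATP1B1 was closest to FOXN2 (r = 0.906), and SCNN1A was closest to FAM177A1 (r = 0.968). All 9 points share their library's scaling factor, which enters each r.

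Other genes of water and ion transport came from a list of 110, of which 103 were in the table and 57 were tested. In DP against LL 7 were called higher and 8 lower, in LG against LL 7 higher and 7 lower, and in LG against DP 5 higher and 6 lower. These are 26.3%, 24.6% and 19.3% of the listed genes tested, beside 22.6%, 17.3% and 13.3% of all genes. Their median log2 fold changes were 0.06, -0.08 and -0.05.

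None of the 9 other aquaporins in the table passed the filter, so AQP1, AQP3 and AQP5 were the water channels that could be tested. Among phosphate carriers, the widely expressed SLC20A1 and SLC20A2 were not called in any comparison. SLC20A1 averaged 4.89, 15.2 and 9.27 FPKM in LL, DP and LG (log2 fold change 0.21 in DP against LL), and SLC20A2 averaged 3.53, 5.27 and 5.53 FPKM (-0.71, limma adjusted p = 0.00681). Of the sodium-potassium pump, the beta 3 subunit ATP1B3 averaged 7.46, 22.6 and 15.4 FPKM in LL, DP and LG and was not called in any comparison. FXYD3, a regulator of the pump, read at most 0.30 FPKM and was not tested.

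Called genes of the list were named by fold change where the higher stage averaged at least 2 FPKM. In DP against LL the lowest was NR3C2, the mineralocorticoid receptor that mediates aldosterone action on sodium transport (10.4, 2.79 and 7.35 FPKM in LL, DP and LG, log2 fold change -2.76), followed by the anion transporter SLC26A7 (-1.47) and the membrane protease ST14 (-1.40), whose deposited means of 18.6 FPKM in LL and 18.1 FPKM in DP differed little before scaling. LRRC8E, a subunit of volume-regulated anion channels, was higher in DP than in LL (0.147, 3.44 and 3.67 FPKM, log2 fold change 1.39), as were the pump regulator FXYD1 (1.34) and HSD11B2 (1.29), which inactivates cortisol before it reaches the mineralocorticoid receptor.

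In LG against LL the potassium-chloride cotransporter SLC12A4 fell by 2.17 on the log2 scale, NR3C2 by 1.52 and the cytoskeletal linker EZR by 1.45, from a deposited mean of 122 to 101 FPKM. CLCN4, a chloride-proton exchanger, rose by 1.68, LRRC8E by 1.62 and SLC5A6, the sodium-dependent multivitamin transporter, by 1.48. In LG against DP the pump regulators FXYD1 and FXYD5 fell by 1.79 and 1.65 and SGK1, a kinase that raises ENaC activity, by 1.29. SLC5A6 rose by 1.94, PRSS8, a protease that activates ENaC, by 1.93 and CLCN4 by 1.47. FXYD1 averaged 1.87, 16.4 and 2.72 FPKM in LL, DP and LG, and its deposited means stood in the same order as those of AQP1.

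**Figure D5:**
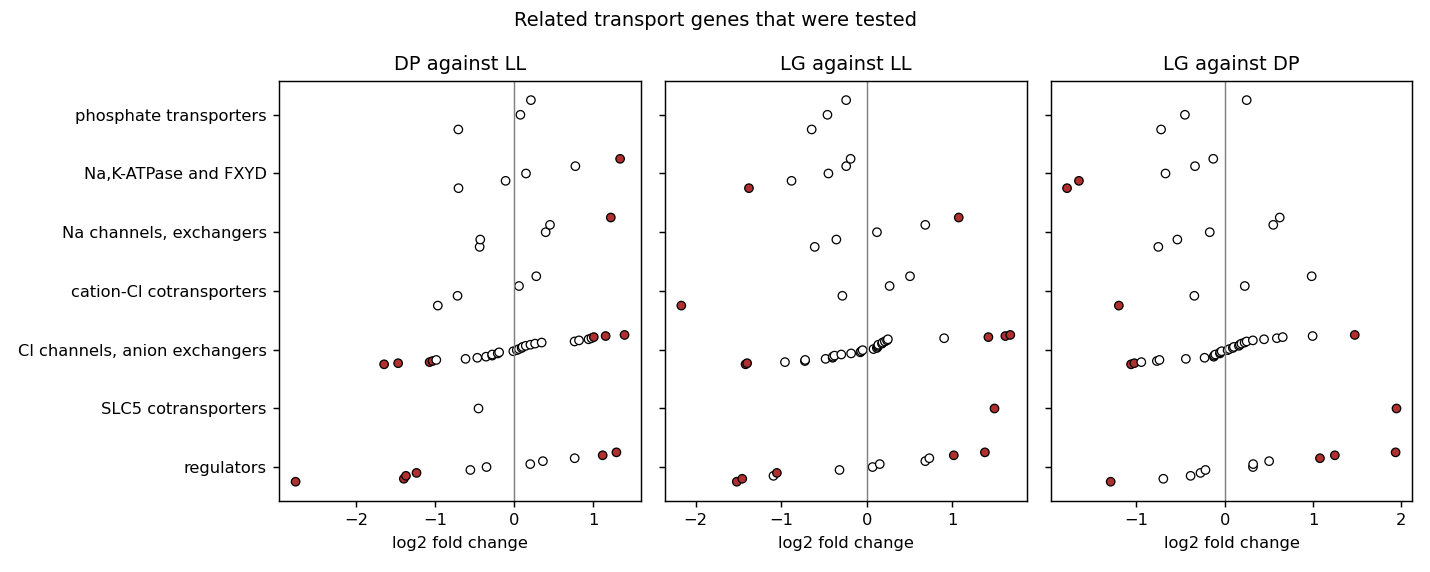
Log2 fold change (axis of values) of the 57 tested genes of the wider transport list in the 3 comparisons, grouped by sublist, with red points for called genes and vertical spread used only to separate points. Points lie on both sides of 0, with 7 called higher and 8 called lower in DP against LL.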

How the data were processed

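Mammary gland RNA of 9 goats (LL, DP and LG, 3 each) was prepared with a TruSeq RNA kit. Per the study's methods and the submitters' processing notes, reads were checked with FastQC, trimmed with Trimmomatic and aligned with HISAT2. StringTie is named for FPKM and HTSeq also among the tools, and which step made the gene table is not given in the sources used here. The authors deposited 1 table of FPKM per gene and library, whose header names neither the unit nor a genome build, so that the unit rests on the methods and the values. Its coordinates equalled the ARS1.2 annotation for all 23465 gene IDs that matched it. The FPKM give no read counts, so depth and counting error per library are unknown. All 9 columns were matched to samples by title.

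FPKM were divided by median-ratio factors over 15905 genes above 0 in all libraries and log2-transformed after adding 1. The 14701 genes with at least 0.5 FPKM in 3 or more libraries were fitted over all 9 libraries with limma 3.58.1 (R 4.3.3, trended empirical Bayes, no covariate), and adjusted p-values are Benjamini-Hochberg. Differences in log2 ratios were tested by two-sided exact permutation (scipy 1.17.1). On data simulated for DP against LL over 14701 genes, 190 of 200 changed genes and 8 unchanged genes were called. The planted changes were 2 or 3 log2 units, with normal noise, in genes of mean log2 value above 2. This checks that the fit runs, and recovery of changes near 1 or of genes near 0 FPKM was not measured. The alternatives were no scaling, quantile or luminal marker scaling, a pseudocount of 0.1, no filter or one at 2 FPKM, a replicate block, no trend, only the 6 libraries compared, adjusted p alone and leaving out each library. The 9 genes and all lists were chosen with earlier results of these data known. All 9 genes are described. Of the wider list, the 3 called genes with the largest change in each direction were named where the mean of the higher stage was at least 2 FPKM, and listed partner genes whatever their result. Of neighbours, the genes next to AQP5 and any overlapping member were chosen after their values were seen. Some genes that this rule would name are not reported here.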

Additional observations from a re-analysis of the deposited data

How the results depend on the processing

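Of 27 results for the 9 genes, 13 were called, and 12 of these were called with the same sign under every alternative that could be run for them (19, or 18 for genes under 2 FPKM). The exception was SLC5A5 in LG against LL, and 4 of the 13 belong to AQP5 and SLC5A5, which met the filter through LG. Of the 14 results not called, 3 kept their sign and call throughout. Calls were gained in LG against LL by CFTR (-1.19) and SCNN1A (-1.62) with a pseudocount of 0.1 and by ATP1B1 without LL2 (-1.44) or LG3 (-1.46), and in LG against DP by AQP3 (1.09 by quantile normalization, 1.26 with a pseudocount of 0.1) and ATP1B1 (-1.28, luminal scaling). With 3 goats a stage and no read counts, values near 0 (SCNN1A, CFTR, SLC34A2 in DP, and AQP5 and SLC5A5 outside LG) are the least certain. The replicate block left 3, 5 and 5 of the 9 genes called in the 3 comparisons (DP against LL, LG against LL, LG against DP) and called 3340, 2564 and 1986 of all genes, against 3321, 2544 and 1948 without it. Numbers name separate goats, deviations of like-numbered libraries correlated at -0.106 to 0.201, and so the numbers were not taken as pairs. Leaving out 1 library gave 3 calls among the 9 genes in DP against LL, beside 3115 to 3462 of all 14701 genes tested. It gave 4 to 6 in LG against LL, beside 2423 to 2616 of all genes, and 5 between LG and DP, beside 1761 to 2021. The counts with LG include calls of AQP5 and SLC5A5, which met the filter through LG.

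Signs turned only for results that were not called. Without scaling, DP against LL gave 0.72 for SLC12A2, 0.41 for CFTR, 1.00 for ATP1B1, 0.40 for SCNN1A and 0.0797 for SLC5A5, and LG against LL gave 0.44 for AQP1 and 0.0906 for ATP1B1. Scaling to luminal markers gave 0.23 for ATP1B1 and 0.18 for SCNN1A in DP against LL. SCNN1A in DP against LL was 0.0475 with a pseudocount of 0.1, 0.0962 without DP1 and between -0.14 (without LL3) and 0.21 (without LL2) when 1 library was left out. Of the ratios to luminal markers, leaving keratins out of the markers gave -0.29 for AQP3 in LG against DP, and 0.47 for SLC12A2, 0.16 for CFTR and 0.15 for SCNN1A in DP against LL, and leaving out ELF5, chosen after seeing the data, gave -0.23 for ATP1B1. That of SCNN1A was 0.26 with a pseudocount of 0.1, again in DP against LL, where leaving out 1 library gave -0.33 to 0.22 for SLC12A2 (highest without DP2), -0.23 to 0.45 for ATP1B1 (below 0 without LL2 or DP1). The ratio of SLC12A2 to ATP1B1 was then -0.59 to 0.17 (highest without LL2). SCNN1A to ATP1B1 was 0.0683 in DP against LL and -1.01 in LG against DP with a pseudocount of 0.1. Leaving out 1 library gave it -0.71 to 0.24 in LG against LL (above 0 without LL2 or LG3), and -0.10 to 0.78 between LG and DP (below 0 without DP1 or LG1).

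Counts moved more. Adjusted p alone called 5 of the 9 genes in DP against LL, 35, 28 and 25 of the wider list and 8359, 7383 and 5112 of all genes in the 3 comparisons. Without scaling, 29 of the wider list (27 higher, 2 lower) and 8348 of all genes (7979 higher, 369 lower) were called in DP against LL, and 7043 of all genes (6698 higher, 345 lower) in LG against LL. A pseudocount of 0.1 gave 22 of the wider list and 3912 of all genes in LG against LL. In LG against DP it gave 17 of the list and 2781 of all genes, and luminal scaling 2964 of all genes (377 higher, 2587 lower). Leaving out 1 library gave 7 to 12 of the wider list in LG against DP, the lowest without DP3, where 1877 of all genes were called.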
